A study of Mus musculus with 6 samples.

Results

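The genes described here encode the CD3 complex of the T cell receptor (TCR) and the proteins that act next to it at the membrane. They were taken by symbol from a table of mouse CD4+ T cells that compared the CK2 inhibitor CX-4945 with its solvent DMSO. The 10 genes are the CD3 chains Cd3e, Cd3d, Cd3g and Cd247, the coreceptor Cd4, the costimulatory receptor Cd28, the kinases Lck and Zap70, the adaptor Lat and the inhibitory receptor Cd5. All 10 were found among 38924 gene rows, and all 10 passed the filter on low counts that left 12502 genes for testing. Naive CD4+ T cells from spleens of C57 BL/6 mice were stimulated with anti-CD3 and anti-CD28 antibodies and kept for 72 h in Th17 conditions, in which IL-6, IL-23 and TGFb1 were the cytokines added. The 3 control cultures received DMSO and the 3 treated cultures CX-4945, an ATP-competitive inhibitor of protein kinase CK2 with known activity on CLK kinases as well. Its dose is written as 2 mM in the labels, and no other source was at hand to check that unit. The antibody to CD3 that stimulated both groups binds the complex whose genes are measured here. Libraries carry the numbers of the table's columns, with 1, 3 and 5 from DMSO cultures and 2, 4 and 6 from CX-4945 cultures.

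The T cell receptor recognises peptide on MHC molecules through its alpha and beta chains, which have almost no cytoplasmic part and signal through CD3 epsilon, delta and gamma and the CD247 (zeta) chain. Lck, brought to the receptor by CD4, phosphorylates tyrosine motifs in the CD3 tails. Zap70 docks there and phosphorylates Lat, the scaffold from which calcium, Ras and NF-kB signalling branch. After strong stimulation T cells take receptors from their surface, and the abundance of transcripts is only one of the controls on surface level.

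Levels below are in CPM, meaning exon reads placed at a single locus per 1000000 such reads of the library, with library sizes scaled by the TMM method. Depth ranged from 22178614 to 26148189 such reads per library. The 10 genes held at least 1895 reads in every library. The spread between cultures was 2.48% to 15.5% of the mean (coefficient of variation, n = 3) with DMSO and 1.54% to 6.21% with CX-4945. The replicates are described as biological, without a statement that separate mice were used, so each p-value covers the variation among these cultures and no more. In these bulk samples, fewer cells carrying a transcript and less of it per cell cannot be told apart.

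With CX-4945, 8 of the 10 genes fell and 0 rose at a Benjamini-Hochberg adjusted p under 0.05 in the edgeR quasi-likelihood test. Over all genes tested, 31.3% were called lower and 30.6% higher. The 3 treated libraries lay below the 3 controls for 9 of the 10 genes, a pattern seen in 34.8% of genes tested. The median log2 fold change of the 10 genes was −0.63, beside −0.0029 over all genes tested. Sizes differed within the set. Cd3g, Cd4, Cd3d, Cd28 and Cd247 fell 1.79-fold to 2.19-fold, Zap70, Cd5 and Cd3e fell 1.32-fold to 1.35-fold, and Lck and Lat did not pass.

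**Figure D1:**
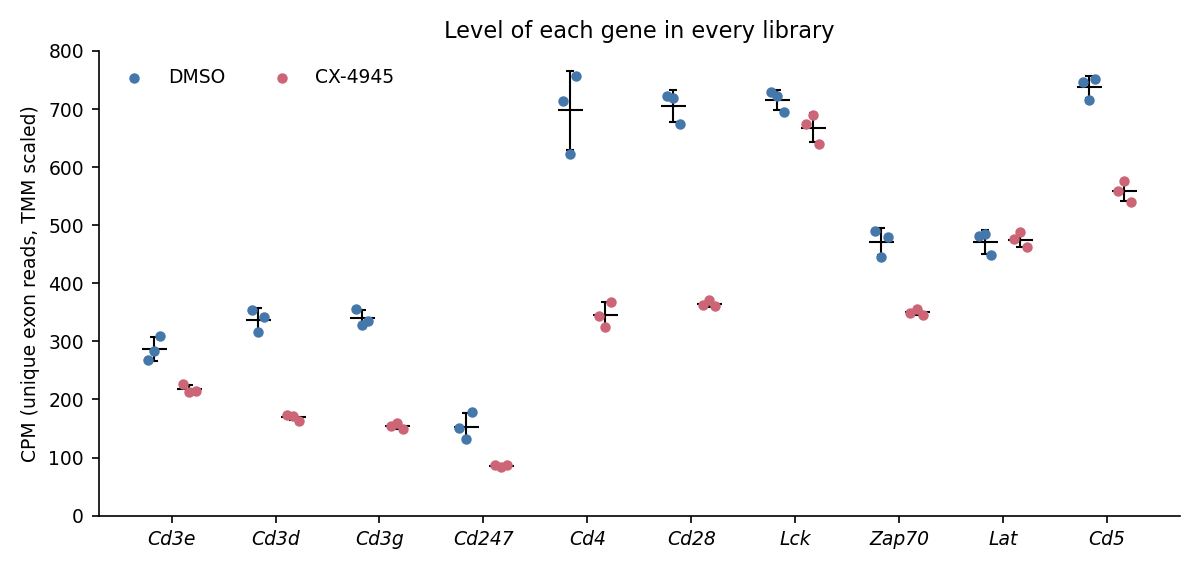
CPM of each gene in every library, with DMSO in blue and CX-4945 in red; horizontal marks are means and bars SD (n = 3). The groups are separate for every gene but Lat, by the least for Lck and by the most for Cd28 and Cd4.

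Cd3g, the CD3 gamma chain (chromosome 9, 44969572 to 44980431, minus strand, mm10), fell the most of the 4 CD3 genes. It had 356, 328 and 335 CPM in DMSO libraries 1, 3 and 5, and 155, 160 and 150 CPM in CX-4945 libraries 2, 4 and 6. All treated libraries lay far below all controls. The log2 fold change was −1.13 ± 0.05 (SE; adjusted p from edgeR = 1.19e-05), and 7.11% of tested genes had a lower value. Cd3d, the delta chain (44981793 to 44987052, plus strand), which pairs with epsilon as gamma does, had 354, 316 and 342 CPM with DMSO and 174, 171 and 164 CPM with CX-4945. Here too all treated libraries lay well under the controls, and the log2 fold change was −0.995 ± 0.06 (SE; adjusted p from edgeR = 1.67e-05).

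Cd3e, the epsilon chain (44998743 to 45009590, minus strand), is present in both epsilon pairs of the complex. Its levels were 268, 284 and 309 CPM with DMSO and 226, 214 and 214 CPM with CX-4945. The groups were separate, but the gap between them was smaller than for its neighbours, with a log2 fold change of −0.40 ± 0.06 (SE; adjusted p from edgeR = 0.000842). The 95% interval of that change, −0.54 to −0.25, did not reach the intervals of Cd3d, −1.13 to −0.86, or Cd3g, −1.26 to −1.01.

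Cd247, the zeta chain with the longest signalling tail of the complex, lies apart from the cluster (chromosome 1, 165788681 to 165877276). It had 150, 131 and 178 CPM with DMSO, the widest spread among the 10 genes, and 86.9, 83.8 and 86.8 CPM with CX-4945. All treated libraries were lower (log2 fold change −0.84 ± 0.10 SE, adjusted p from edgeR = 0.000222). In GENCODE M21, 3007 of its 5329 exon bases overlap exons of Pou2f1 on the opposite strand, a transcription factor gene that rose from 11.3 to 14.5 CPM (adjusted p from edgeR = 0.0172). Another 206 bases are shared with Gm16565 on the same strand, which dropped from 3.03 to 0.762 CPM. The strand setting of the counting is not given in the sources used here, so the level of Cd247 is less certain than those of the other chains.

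Per kilobase of exon in the deposited annotation, the levels of Cd3g, Cd3d and Cd3e lay closer together with CX-4945. Before division by length they did not, with mean CPM of 340, 337 and 287 under DMSO and 155, 169 and 218 under CX-4945. The deposited exon lengths are 1070, 1323 and 1436 bases, against 3269, 1815 and 4080 exon bases in GENCODE M21. The order of the 3 genes per kilobase depends on that choice, while log2 differences between groups in their ratios do not. Cd3g averaged 317 ± 13.9 CPM per kb with DMSO and 145 ± 4.84 with CX-4945 (SD, n = 3). Cd3d went from 255 ± 14.9 to 128 ± 3.92 and Cd3e from 200 ± 14.1 to 152 ± 5.05 CPM per kb. Cd3e was the lowest of the cluster's genes in every control library. In the treated ones it was the highest in libraries 2 and 6 and just under Cd3g in library 4. The ratio of Cd3g to Cd3e per length was 1.78, 1.55 and 1.46 in the DMSO libraries and 0.917, 1.01 and 0.940 in the CX-4945 libraries. The ratio of Cd3d to Cd3e was 1.43, 1.21 and 1.20, against 0.832, 0.867 and 0.830. Both ratios separated the groups, by differences of −0.74 and −0.60 on the log2 scale. Cd247, far below Cd3e in both groups, moved further from it, with a ratio of 0.143 ± 0.017 with DMSO and 0.105 ± 0.0029 with CX-4945 (SD, n = 3; log2 difference −0.43; groups separate). Such ratios do not depend on how libraries are scaled. An exact permutation test of 3 against 3, two-sided, cannot go below p = 0.1, which was the value for all 3 ratios.

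**Figure D2:**
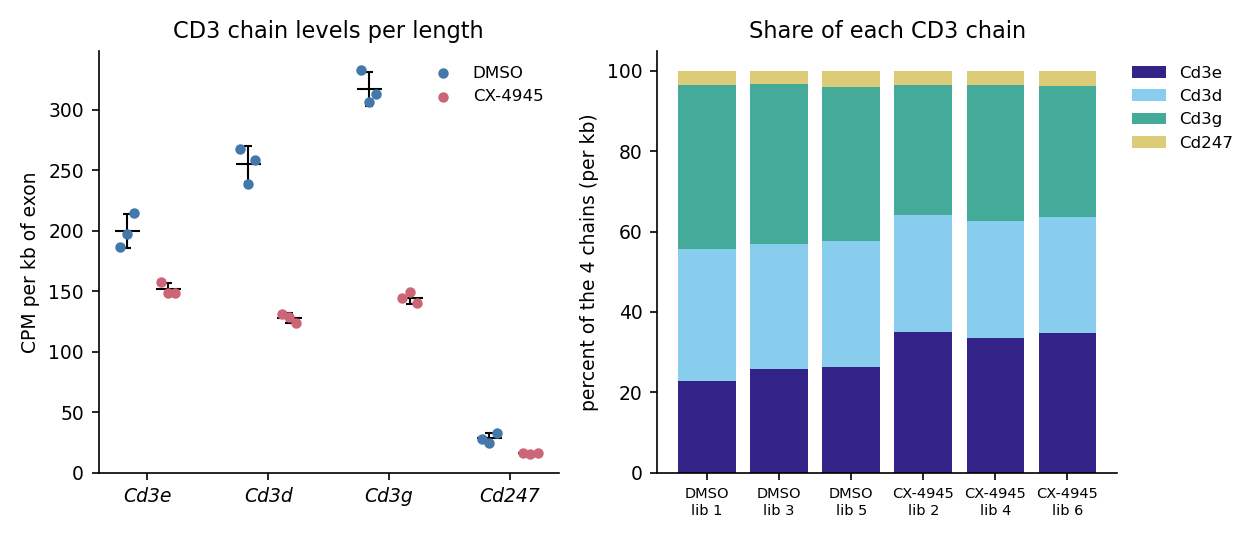
Left, CPM per kilobase of exon for the 4 CD3 genes in every library, with means and SD (n = 3). Right, share of each chain in their per-length sum; Cd3e takes 22.9% to 26.2% with DMSO and 33.6% to 35.1% with CX-4945.

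As a share of the per-length sum of the 4 chains, Cd3e was higher in every treated library than in any control, with 34.5% ± 0.78 against 25.0% ± 1.79 (SD, n = 3; exact permutation p = 0.1, the smallest possible). Cd3g took 39.6% ± 1.34 with DMSO and 32.9% ± 0.83 with CX-4945, and Cd3d 31.8% ± 0.89 and 29.0% ± 0.19. Cd247 took 3.56% and 3.63%, with overlapping groups. All 4 shares depend on exon lengths of the deposited annotation, which are 5374 bases for Cd247 and 1070 to 1436 bases for the other chains. In GENCODE M21 the exon bases are similar for Cd247, at 5329. They are more for the others, with 4080 for Cd3e, 3269 for Cd3g and 1815 for Cd3d. Before division by length, Cd247 already had the lowest mean of the 4 chains in each group. That mean was 153 CPM under DMSO, where Cd3e came next at 287. Under CX-4945 it was 85.8 CPM, where Cd3g came next at 155. The effect of the overlap with Pou2f1 on the share of Cd247 was not tested.

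The sequences upstream of the 3 clustered CD3 genes are shown because these neighbours moved by different amounts, and those of Lat and Lck because neither passed the test. Each runs 5′ to 3′ on the gene's strand over the 250 bases before a RefSeq start in GRCm38.p6, the assembly also named mm10. Bases just after the start were found in a GENCODE M21 transcript of the gene for Cd3g, Cd3d, Lat and Lck, but not for Cd3e. Capitals mark 4 motifs on either strand, with overlapping matches joined. They are GGAA as the core of ETS factor sites, TGTGGT as that of RUNX factors, AGATAA for factors of the GATA family, and CAGCTG as an E-box.
Cd3g chr9:44980432-44980681 (−): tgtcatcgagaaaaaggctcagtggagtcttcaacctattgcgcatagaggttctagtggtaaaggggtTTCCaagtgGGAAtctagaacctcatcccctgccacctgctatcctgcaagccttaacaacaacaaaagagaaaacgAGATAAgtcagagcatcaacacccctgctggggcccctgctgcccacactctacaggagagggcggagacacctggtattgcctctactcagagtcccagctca
Cd3d chr9:44981536-44981785 (+): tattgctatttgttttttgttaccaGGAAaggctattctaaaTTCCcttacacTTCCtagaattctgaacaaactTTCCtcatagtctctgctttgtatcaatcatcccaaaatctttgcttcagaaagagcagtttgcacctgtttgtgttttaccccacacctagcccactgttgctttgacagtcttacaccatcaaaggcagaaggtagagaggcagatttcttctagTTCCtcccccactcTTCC
Cd3e chr9:45009612-45009861 (−): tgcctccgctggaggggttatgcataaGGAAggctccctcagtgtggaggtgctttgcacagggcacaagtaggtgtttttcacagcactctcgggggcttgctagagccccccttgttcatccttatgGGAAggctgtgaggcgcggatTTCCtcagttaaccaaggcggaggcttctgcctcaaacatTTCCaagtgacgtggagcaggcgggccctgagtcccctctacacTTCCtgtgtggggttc
Lat chr7:126369569-126369818 (−): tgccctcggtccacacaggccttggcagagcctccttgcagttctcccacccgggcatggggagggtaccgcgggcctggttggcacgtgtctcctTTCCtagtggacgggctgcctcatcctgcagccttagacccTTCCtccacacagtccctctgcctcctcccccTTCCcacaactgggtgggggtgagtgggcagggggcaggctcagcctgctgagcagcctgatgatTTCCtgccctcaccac
Lck chr4:129573642-129573891 (−): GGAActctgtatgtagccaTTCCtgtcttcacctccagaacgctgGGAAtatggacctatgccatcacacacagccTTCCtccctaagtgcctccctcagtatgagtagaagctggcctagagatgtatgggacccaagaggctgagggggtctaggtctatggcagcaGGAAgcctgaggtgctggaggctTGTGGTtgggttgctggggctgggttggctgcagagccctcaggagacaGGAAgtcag
Cd3g and Cd3d point away from each other, with 1354 bases between their starts. GGAA occurred 2 times before Cd3g, 6 before Cd3d, 5 before Cd3e, 4 before Lat and 6 before Lck. It is present in 93.4% of all 32851 windows, at a median of 3 matches. AGATAA was found before Cd3g and in 9.99% of all windows, and TGTGGT before Lck and in 14.0%. Lck has a second RefSeq start, at a window of 129558373 to 129558622 with 3 matches of GGAA and 0 of TGTGGT; the window shown is the one before the gene's outermost start. CAGCTG was in none of the 5 windows and in 13.0% of all. The Cd3d window had 41.2% G and C and the Lat window 65.2%, beside a median of 52.4% over all windows. RefSeq windows were at hand for 8 of the 10 genes, not for Cd4 and Cd28. These matches describe letters only, and no binding was measured.

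Cd4, the coreceptor that binds MHC class II and carries Lck (chromosome 6, 124864692 to 124888221), had 714, 622 and 757 CPM with DMSO. With CX-4945 it had 344, 325 and 368 CPM. No library of either group came near the other group, and Cd4 fell 2.02-fold (log2 fold change −1.01 ± 0.08 SE, adjusted p from edgeR = 4.21e-05). Cd28 (chromosome 1, 60716800 to 60773359), the receptor for CD80 and CD86 that was itself engaged by antibody in these cultures, had 723, 719 and 674 CPM with DMSO and 362, 372 and 362 CPM with CX-4945. The treated libraries lay close together (coefficient of variation 1.54%), and the fall was 1.93-fold (log2 fold change −0.95 ± 0.05 SE, adjusted p from edgeR = 1.47e-05).

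Cd5 (chromosome 19, 10718143 to 10738974) encodes a surface glycoprotein that dampens receptor signals and whose cytoplasmic tail is known to bind CK2. It had 747, 716 and 751 CPM with DMSO and 559, 577 and 541 CPM with CX-4945. Every treated library was lower, by 1.32-fold on the whole (log2 fold change −0.40 ± 0.05 SE, adjusted p from edgeR = 0.000317). The ratio of Cd5 to Cd3e per length was 1.79 ± 0.126 with DMSO and 1.78 ± 0.083 with CX-4945 (SD, n = 3), with overlapping groups (exact permutation p = 1).

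Among the kinases, Zap70 (chromosome 1, 36761861 to 36782816), which binds the phosphorylated CD3 tails, had 490, 446 and 479 CPM with DMSO and 349, 356 and 345 CPM with CX-4945. It fell 1.35-fold, and its ratio to Cd3e per length was 1.09 ± 0.10 and 1.06 ± 0.042 (SD, n = 3; exact permutation p = 0.8). The edgeR adjusted p of Zap70 was 0.000265. Lck (chromosome 4, 129548344 to 129573641), the Src-family kinase that starts the cascade, had 729, 722 and 695 CPM with DMSO and 674, 690 and 640 CPM with CX-4945. Although the groups did not overlap, the lowest control and the highest treated library were close, and Lck did not pass (log2 fold change −0.10 ± 0.05 SE, 95% interval −0.22 to 0.02, adjusted p from edgeR = 0.137). That interval spans 0.858 to 1.02 times the control level. The ratio of Lck to Cd4 per length went from 1.41, 1.60 and 1.26 with DMSO to 2.70, 2.92 and 2.40 with CX-4945.

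Lat (chromosome 7, 126363832 to 126369543), the membrane scaffold phosphorylated by Zap70, had 482, 485 and 448 CPM with DMSO and 475, 489 and 462 CPM with CX-4945. The groups overlapped throughout, and the log2 fold change was 0.01 ± 0.05 (SE; 95% interval −0.11 to 0.14; adjusted p from edgeR = 0.866). The interval spans 0.925 to 1.10 times the control level, so changes beyond these bounds lie outside it. The ratio of Lat to its kinase Zap70 was 1.73, 1.91 and 1.65 with DMSO and 2.40, 2.41 and 2.35 with CX-4945, and the groups were separate. In all, 9 pairs of genes were compared by ratio. For 7 of them the groups did not overlap, with an exact permutation p of 0.1, or 0.129 after Benjamini-Hochberg adjustment over the pairs. Most pairs contain Cd3e, so they are not independent. The share of separate ratios among other gene pairs was not computed. Of 12502 single genes tested, 4345 lay lower and 4375 higher with CX-4945 without overlap of the groups.

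**Figure D3:**
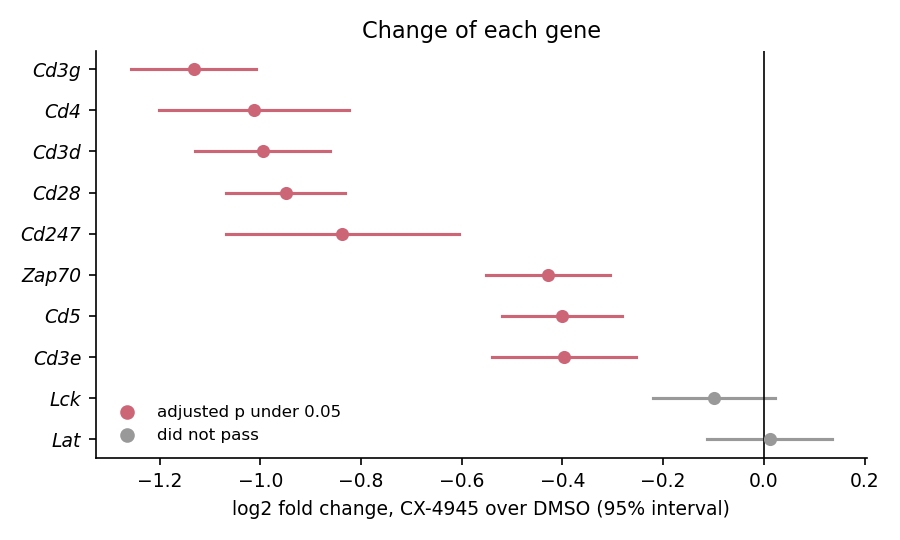
Log2 fold change of each gene, CX-4945 over DMSO, with its 95% interval from the edgeR fit. The intervals of Lck and Lat include 0, and the other 8 lie below it, from −0.40 for Cd3e to −1.13 for Cd3g.

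Ordered by level per kilobase of exon, the control libraries ran from Lat (381 ± 16.4 CPM per kb) through Cd5 (357), Cd3g (317), Cd3d (255), Lck (244), Zap70 (216), Cd3e (200), Cd4 (173) and Cd28 (115) to Cd247 (28.5; n = 3). Neighbours in that order whose ranges overlapped were Lat and Cd5, Cd3d and Lck, Zap70 and Cd3e, and Cd3e and Cd4. With CX-4945 the order was Lat (384 ± 10.8), Cd5 (270), Lck (228), Zap70 (161), Cd3e (152), Cd3g (145), Cd3d (128), Cd4 (85.7), Cd28 (59.6) and Cd247 (15.97), and only Cd3e and Cd3g overlapped. Cd3g went from the third place to the sixth, and Lck from the fifth to the third. These levels depend on the exon lengths of the deposited annotation.

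In the authors' deposited table, 1 of the 10 genes had a corrected p-value under 0.05. This was Cd3d, with 0.0382 and a log2 difference of −0.90. The share of all genes under 0.05 there was not computed, so the count cannot be judged as few or many. The authors' deposited table gave Cd3g a difference of −1.03 (corrected p = 0.0671), Zap70 −0.35 (0.0572) and Cd4 −0.98 (0.0907). Corrected p-values in the authors' deposited table were 0.0930 for Cd28, 0.103 for Cd5, 0.227 for Cd3e and 0.235 for Cd247. For the genes that did not pass here, the log2 differences in the authors' deposited table were 0.03 for Lck (corrected p = 1) and 0.18 for Lat (0.29). Those differences are on the scale of quantile-normalized RPKM, where the value of Lck has the other sign than in CPM. The mean RPKM of Lck in the authors' deposited table was 159.91 in control and 159.96 in treatment. This upward shift is not particular to Lck. For each of the 10 genes the authors' difference lay above the log2 fold change from CPM. The cause was not tested. For Cd247, the authors' deposited table has mean RPKM values of 23.9 for control and 15.9 for treatment. These count reads placed at several loci too and, unlike CPM here, carry no TMM scaling. Their ratio of 1.5 stands beside the 1.79-fold fall in uniquely placed reads. For Cd3e the RPKM ratio was 1.23, beside a 1.32-fold fall here. The parts of read placement and scaling in these gaps were not tested.

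Of 6 tested constant genes of the antigen-binding chains, 1 fell and 0 rose, beside 31.3% and 30.6% of all genes tested. Trac, the constant gene of the alpha chain, had 206, 194 and 201 CPM with DMSO and 138, 138 and 136 CPM with CX-4945, 1.46-fold lower (adjusted p from edgeR = 5.27e-05). The beta constant genes did not pass. Trbc1 had 76.1 ± 7.74 and 65.9 ± 3.40 CPM (SD, n = 3; adjusted p from edgeR = 0.0524) and Trbc2 151 ± 18.4 and 139 ± 7.64 CPM (SD, n = 3; adjusted p from edgeR = 0.275). Without DMSO library 5 both passed, with log2 fold changes of −0.28 and −0.22 (adjusted p from edgeR = 0.00622 and 0.0134). The 2 genes are nearly identical, so unique reads can be lost or split between them. The gamma constant genes Tcrg-C1, Tcrg-C2 and Tcrg-C4 stayed between 0.891 and 5.17 CPM in every library, and 0 of the 3 passed with edgeR over all libraries. Without DMSO library 3, Tcrg-C1 and Tcrg-C2 passed as higher (adjusted p from edgeR = 0.0236 and 0.0469).

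Of 9 other surface partners of the receptor, 7 fell and 0 rose, beside 31.3% and 30.6% of all genes tested. Their median log2 fold change was −0.37. Cd6, which lies beside Cd5 on chromosome 19 and resembles it, had 606 ± 19.8 and 450 ± 2.18 CPM (SD, n = 3), 1.35-fold lower (adjusted p from edgeR = 0.000177). Cd2, an adhesion receptor, fell 1.29-fold. Ctla4, the inhibitory counterpart of Cd28 for the same ligands, fell 1.94-fold from 1532 ± 29.3 to 791 ± 94.0 CPM (adjusted p from edgeR = 5.66e-05), close to the 1.93-fold fall of Cd28.

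The other proximal kinases split, with 2 lower and 1 higher, beside 31.3% and 30.6% of all genes tested. Of 6, the Tec-family genes Txk and Tec fell 2.05-fold and 1.79-fold, from 95.6 ± 11.7 to 46.6 ± 3.92 CPM and from 109 ± 6.34 to 61.3 ± 4.84 CPM (adjusted p from edgeR = 7.47e-05 and 5.15e-05). Csk, which inhibits Lck, rose 1.10-fold (adjusted p from edgeR = 0.0339), a call lost when any library but DMSO library 3 was left out (adjusted p 0.0672 to 0.1295) and with no filter on low counts (0.0613). Fyn, the second Src-family kinase of T cells, was named after its values were seen; it had 165 ± 1.66 and 175 ± 7.91 CPM (SD, n = 3) and did not pass (adjusted p from edgeR = 0.165).

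Around Lat, 9 of 14 adaptor genes of the LAT and SLP-76 complex fell and 0 rose (median log2 fold change −0.18). Over all genes tested, the shares were 31.3% lower and 30.6% higher. Themis, an adaptor that tunes receptor signals in developing T cells, fell 3.74-fold from 146, 113 and 175 CPM to 38.3, 31.3 and 46.3 CPM (adjusted p from edgeR = 7.54e-05). Nck2, which links receptor and cytoskeleton, fell 2.16-fold, Fyb, the ADAP adaptor of integrin activation, 1.59-fold, and its partner Skap1 1.38-fold. Lcp2, the SLP-76 scaffold that joins Lat, was named after its values were seen and had 115 ± 11.9 and 117 ± 5.49 CPM (SD, n = 3; adjusted p from edgeR = 0.826). The transmembrane adaptors other than Lat went the other way in 3 of 5 cases, beside 30.6% of all genes tested. Pag1, which anchors Csk, rose from 27.3 ± 1.45 to 35.0 ± 0.99 CPM, and Lax1 rose 1.41-fold. Trat1 rose from 0.673 to 1.59 CPM, which no longer passed once DMSO library 1, DMSO library 3 or CX-4945 library 6 was removed (adjusted p in edgeR between 0.0504 and 0.0801). Lime1 fell from 2.88 to 1.42 CPM.

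Among 11 effector enzymes below Lat, 5 fell and 2 rose (median −0.28), which is not far from the 31.3% lower and 30.6% higher among all genes tested. Plcg1, the phospholipase recruited by Lat, fell 1.34-fold from 206 ± 14.8 to 154 ± 7.04 CPM (SD, n = 3; adjusted p from edgeR = 0.000772). Malt1, which carries the signal to NF-kB, fell 1.28-fold from 1375 ± 44.8 to 1071 ± 50.9 CPM. Pik3r1, the regulatory subunit of PI3K, rose 1.49-fold from 187 ± 11.8 to 280 ± 26.7 CPM (adjusted p from edgeR = 0.000435). The falls of Plcg1 and Malt1 were nearer in size to those of Zap70 and Cd3e than to that of Cd3g.

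Negative regulators of the pathway also fell, in 11 of 16 cases, while 2 rose (median −0.39). Cblb, an E3 ligase that restrains signalling in the absence of costimulation, had 516, 452 and 595 CPM with DMSO and 111, 108 and 136 CPM with CX-4945, a 4.40-fold fall (adjusted p from edgeR = 1.62e-05). Ptpn22, a phosphatase that acts on Lck and Zap70, fell 1.93-fold from 224 ± 3.63 to 116 ± 4.95 CPM. Sla, an adaptor that promotes turnover of the receptor complex, fell 2.55-fold from 23.3 CPM, and Ubash3a, a suppressor of receptor signalling, fell 1.51-fold. Over the 7 pathway lists together, 36 of 67 tested genes fell and 8 rose (median −0.20), beside 31.3% and 30.6% of all genes tested.

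**Figure D4:**
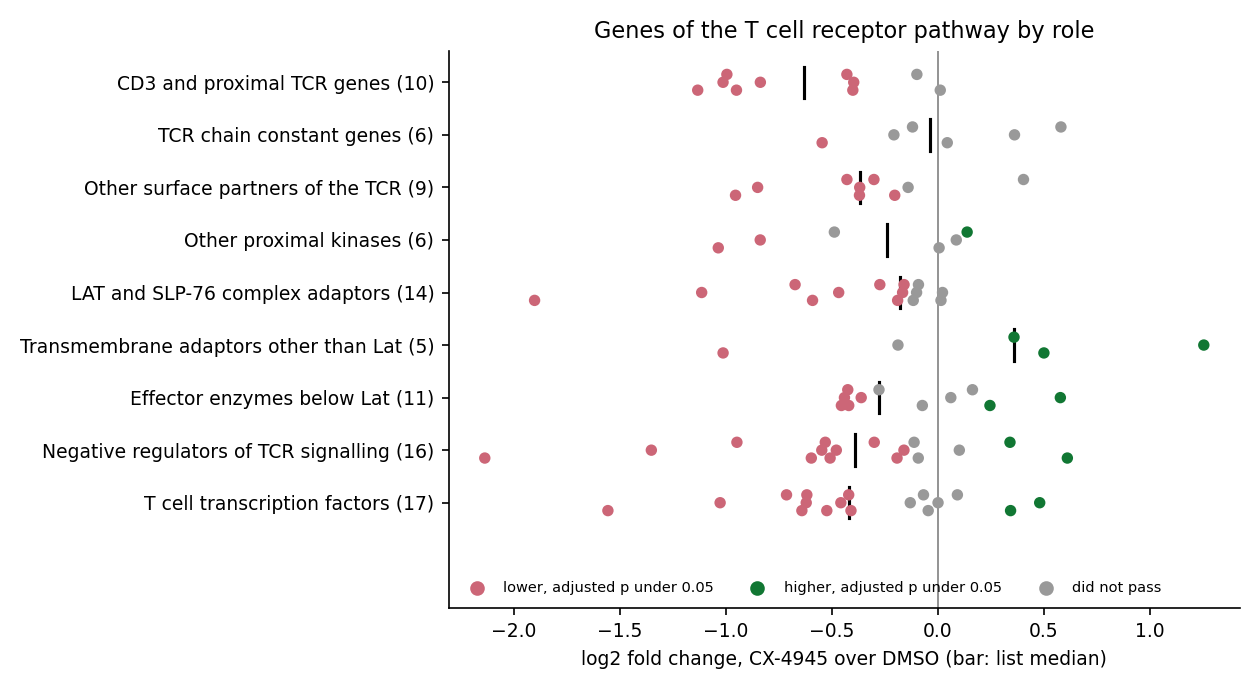
Log2 fold change of each tested gene by role, CX-4945 over DMSO, with the number tested in brackets and a black bar at the list median. Red and green points passed the test; Cblb (−2.14) and Themis (−1.90) are the lowest points, and the transmembrane adaptors are the one plotted list with a median above 0.

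Of 17 transcription factor genes of T cells, several of which are known to act at the CD3, TCR or Cd4 loci, 10 fell and 2 rose (median −0.42), beside 31.3% lower and 30.6% higher among all genes tested. Satb1, a chromatin organiser, fell 2.94-fold from 1892 ± 134 to 643 ± 87.4 CPM (SD, n = 3; adjusted p from edgeR = 2.26e-05). The ETS family genes Ets1 and Fli1 fell 1.54-fold and 1.44-fold, Ets1 from 1913 ± 138 to 1244 ± 37.9 CPM, and Ikzf1 fell 1.37-fold. Among those named after their values were seen, Runx3 fell 2.04-fold (adjusted p from edgeR = 0.000405) while Runx1 had 98.3 and 98.4 CPM (adjusted p from edgeR = 0.99). Zbtb7b, the ThPOK factor of the CD4 lineage, fell 1.34-fold, and Tcf3, the E2A factor, rose 1.40-fold.

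Genes within 100 kb were counted to see whether whole loci moved. Around the Cd3e, Cd3d and Cd3g cluster, 6 neighbours were tested and 0 fell. Mpzl2, an adhesion gene, rose from 5.87 ± 0.92 to 15.5 ± 5.66 CPM (adjusted p from edgeR = 0.00167). Ube4a, located 3971 bases from Cd3g, had 122 ± 10.4 and 130 ± 1.99 CPM (SD, n = 3; adjusted p from edgeR = 0.246). Around Cd4, 5 of 11 fell and 5 rose. Lag3, a relative of Cd4 located 16139 bases away, fell 2.11-fold from 128 ± 18.1 to 60.8 ± 3.39 CPM, whereas Ptms, 25459 bases away, rose 1.46-fold. Over all loci, 16 of 45 tested neighbours fell and 14 rose, with a median of −0.02, near the 31.3% lower and 30.6% higher among all genes tested.

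By root mean square distance of centred log2 CPM over the 6 libraries, the genes most like the mean profile of Cd3e, Cd3d and Cd3g were Igf1r (distance 0.0186), Ppme1 (0.0371), Arap1 (0.0384), Apobr (0.0404) and Tnfrsf8 (0.0410). Their falls ranged from 1.79-fold for Igf1r to 1.89-fold for Tnfrsf8. Cd28 stood at 0.0793 and Cd3d itself at 0.0822, while Cd3e, at 0.230, was farther from the mean of its own cluster than Zap70 (0.208). With 6 libraries in 2 groups this measure mostly reflects the size of the change.

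Markers of other cells were low beside the 10 genes, which summed to 4767 to 5013 CPM with DMSO and 3332 to 3437 CPM with CX-4945. The 5 B cell markers summed to 10.4 to 18.0 and 12.02 to 12.7 CPM, and 0 of 4 tested passed with edgeR. Of 5 macrophage markers, which summed to 13.9 to 21.0 and 18.5 to 35.1 CPM, Cd68 rose. Removing any of DMSO libraries 1 and 3 and CX-4945 libraries 2 and 6 ended that call (adjusted p in edgeR between 0.0622 and 0.139). The 4 dendritic cell markers summed to 7.08 to 8.31 and 3.52 to 7.16 CPM, with Flt3 lower and Siglech at 0 reads. NK markers summed to 55.4 to 79.2 and 90.1 to 109 CPM, nearly all of it Klrd1, which rose 1.54-fold, while the defining genes Ncr1 and Klrb1c stayed at or below 0.17 CPM. Klre1 also rose, a call that ended in DESeq2, with no filter, and on removing any library but CX-4945 library 4. Of the CD8 coreceptor genes, Cd8b1 fell from 11.6 to 6.42 CPM and Cd8a had 13.6 and 12.4 CPM (adjusted p from edgeR = 0.656). Neutrophil and erythroid markers summed to at most 0.605 and 0.564 CPM in any library. The part of other cells in the falls of the 10 genes was not tested.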

How the data were processed

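Total RNA from 6 cultures of mouse CD4+ T cells was sequenced by Genewiz on the Illumina platform, per the labels' protocols. The submitters' processing notes name mm10 as the build. Aligner, annotation and strand setting: not given in the sources used here. The deposited table gives counts of unique exon reads per gene, which are whole reads placed at 1 locus with no scaling. Group means in it are the authors' RPKM, computed from total exon reads. Per the file headers, the comparison columns hold the authors' p-value and difference of log2 RPKM after quantile normalization. Column names show the group and not which labelled replicate a column is, so columns entered as unpaired replicates. Another 84 value columns per library were not used.

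Genes were kept by filterByExpr (minimum count 10, minimum total 15) and libraries scaled by TMM (factors 0.971 to 1.02). Genes were tested with edgeR's quasi-likelihood method over all 12502, two-sided, with Benjamini-Hochberg adjustment at 0.05. SEs were derived from the F statistic, and fold changes come from the model. CPM per kb is CPM divided by the exon length in the table. The common biological coefficient of variation was 8.55%. A count of 3 reads equals 0.112 to 0.133 CPM; this bound covers counting error only. On simulated counts with the depths of these libraries, the test called 12% of 50 genes changed 1.25-fold and 92% of 50 changed 2-fold. In that simulation 12302 of 12502 genes were unchanged, whereas here 31.3% were called lower and 30.6% higher. The Benjamini-Hochberg cutoff was therefore stricter in the simulation, and its shares do not measure the sensitivity of the test on these data. Versions were R 4.3.3, edgeR 4.0.16, DESeq2 1.42.0, Python 3.11.15, pandas 2.3.3, scipy 1.17.1 and matplotlib 3.10.9. Promoter windows are from RefSeq (GRCm38.p6).

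The 10 genes, the 15 gene lists and the alternatives were chosen with earlier results of these data known. Of 111 listed genes 109 matched a row. The rule for named genes took all 10 genes, up to 4 genes per list past the threshold by smallest adjusted p, every tested TCR constant gene, neighbours within 100 kb of a gene past the threshold, and the 5 genes nearest in profile. Others are named as chosen after their values were seen, and some genes the rule took are not reported here. Alternatives were DESeq2 size factors, the DESeq2 Wald test, no filter, a filter of 5 CPM in 3 libraries, and leaving out each library.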

Additional observations from a re-analysis of the deposited data

How the results depend on the processing

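All 8 genes that fell passed, and Lck and Lat did not pass, under each of the 10 alternatives run: DESeq2 size factors, the DESeq2 Wald test, no filter, a filter of 5 CPM in 3 libraries, and 6 fits without 1 library. Cd3e kept an adjusted p of at most 0.00586 (log2 fold change −0.44 to −0.34), and Lck ranged from −0.12 to −0.07 (lowest adjusted p 0.0732). The log2 fold change of Lat, 0.01 in the fit reported, was −0.0066 with the filter of 5 CPM, −0.025 without DMSO library 5 and −0.0073 without CX-4945 library 4, and ranged from −0.025 to 0.033 over the fits without 1 library; the cause was not tested. Small list counts moved. The TCR constant genes had 2 lower with the filter of 5 CPM and 1 to 3 without 1 library, and 0 to 2 higher. The other surface partners had 0 to 1 higher without 1 library. The other kinases had 0 higher with no filter and 0 to 1 without 1 library. The transmembrane adaptors had 0 lower with the filter of 5 CPM, which left fewer genes tested, and 1 to 2 without 1 library. Tcrg-C4, which did not pass, changed sign without DMSO library 1 (−0.079) or CX-4945 library 4 (−0.089) and reached 0.22 without DMSO library 3. The ratio of Zap70 to Cd3e, −0.03 on the log2 scale, ranged from −0.075 to 0.042, above 0 without DMSO library 1. That of Cd5 to Cd3e, −0.0062, ranged from −0.047 to 0.050; it was 0.050 on leaving out library 1, 0.021 on leaving out library 2 and 0.0039 on leaving out library 6. No paired analysis was possible because the columns carry no replicate number of the labels and column order pairs no samples. Reads assigned to introns and total exon reads were not run. Columns of every measure could be tied to groups only, and 1 measure per library was taken. Each of the 10 genes had at least 1895 reads in every library.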
